A study of Rattus norvegicus with 22 samples.

Results

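The genes described are 10 spinal neuropeptide genes, Penk, Pdyn, Tac1, Tac3, Sst, Npy, Cck, Gal, Nts and Grp, taken by symbol from a count table of 32883 genes. All 10 were in the table. The table holds RNA sequencing of the ventral cervical spinal cord, segments C3 to C6, with 1 library for each of 22 young-adult Sprague-Dawley rats, and the study asked how removal of the gonads changes gene expression there. The dorsal part of each segment was discarded at dissection. The groups were 5 intact males, 5 castrated males (GDX), 6 intact females and 6 ovariectomized females (OVX). Tissue of GDX and OVX rats was taken 2 weeks after surgery under isoflurane, with buprenorphine, an opioid, given before surgery; the controls were age-matched with intact gonads and are not said to have been sham operated. Rats are named by the number in their labels, and the columns of the intact males, spelled Inact in the table, were matched to them by sex and number. Since each library is a separate rat, p-values measure the spread between rats.

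Neuropeptides are cut from larger precursor proteins, packed into dense-core vesicles and released by neurons to act on G protein-coupled receptors. In the spinal cord many of these precursors are made by small interneurons of the superficial dorsal horn, where pain and itch signals arrive, while others are also made by ventral interneurons, motor neurons or neurons near the central canal. A ventral sample that keeps a variable strip of dorsal tissue would therefore carry variable amounts of several of these transcripts.

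Between 12371756 and 17571887 reads were counted per library, and 1 count equalled between 0.0557 and 0.0805 CPM (counts scaled to library size with TMM factors). Of the 10 members, 7 passed the filter on low counts over all 22 rats (Penk, Pdyn, Tac1, Sst, Cck, Gal and Nts) and 3 did not (Tac3, Npy and Grp). Levels are compared between rats for each gene and not between genes, since no transcript lengths were used. The libraries fall into a shorter and a longer class of input fragments by the study's mapping statistics. The shorter class has 15 libraries: all those of GDX and OVX rats and 4 of intact rats (males 2 and 5, females 1 and 4). The longer class has 7, each from an intact rat.

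The opioid precursors come first. Penk (ENSRNOG00000008943) encodes proenkephalin, the source of the enkephalins. Penk had 46.6, 56.3, 37.0, 52.8 and 35.7 CPM in intact males 1, 2, 3, 5 and 6. In GDX males 1, 2, 4, 5 and 6 it had 42.6, 45.5, 34.8, 25.2 and 29.5 CPM. The groups overlapped: GDX males 1 and 2 lay within the range of the intact males, and the other GDX males lay below all of them. In intact females Penk ranged from 28.4 to 51.8 CPM with a median of 32.5 CPM, and in OVX females from 31.4 to 54.6 CPM with a median of 36.6 CPM. The female groups overlapped over nearly their whole range. Pdyn (ENSRNOG00000026036), the precursor of the dynorphins that act at the kappa receptor, was low, with 4 to 31 counts per library. Its mean was 0.698 ± 0.253 CPM (SD, n = 5) in intact males, 0.723 ± 0.613 CPM (SD, n = 5) in GDX males, 0.696 ± 0.261 CPM (SD, n = 6) in intact females and 1.04 ± 0.556 CPM (SD, n = 6) in OVX females. GDX male 2, at 1.80 CPM, stood apart from the other GDX males, which had at most 0.604 CPM.

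The tachykinin genes encode peptides of excitatory neurons. Tac1 (ENSRNOG00000007374), the precursor of substance P and neurokinin A, had 0.460 to 4.02 CPM in intact males and 1.56 to 3.82 CPM in GDX males. It ranged from 1.17 to 2.76 CPM in intact females (median 2.23) and from 1.17 to 4.91 CPM in OVX females (median 2.35). The spread between rats within each group was larger than any difference between group means. Tac3 (ENSRNOG00000004229), the precursor of neurokinin B, had between 0 and 16 counts per library and no count in 9 of 22 libraries. Its highest value, 1.29 CPM, was in OVX female 5, the rat that was also highest in Tac1, Sst, Pdyn and Nts.

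Sst (ENSRNOG00000001837) encodes somatostatin, an inhibitory peptide of many excitatory dorsal horn neurons. Sst had 7.54, 10.8, 7.70, 8.30 and 4.53 CPM in intact males 1, 2, 3, 5 and 6, and 7.71, 6.49, 6.82, 4.79 and 6.19 CPM in GDX males 1, 2, 4, 5 and 6. In females it ranged from 4.97 to 9.86 CPM in intact rats (median 6.65) and from 5.85 to 12.3 CPM in OVX rats (median 7.10). Neither pair of groups was separated. Npy (ENSRNOG00000046449), neuropeptide Y, had no count in any of the 5 intact males and no count in 14 of the 22 libraries. GDX male 4 alone held 20 of its 36 counts. Nothing can be said of Npy between groups at this depth, since in intact males 3 counts over the group, the limit that a count of 0 allows, correspond to 0.0414 CPM.

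Cck (ENSRNOG00000019321), the cholecystokinin precursor, was even across groups. It had 7.31 to 13.1 CPM in intact males and 8.09 to 9.29 CPM in GDX males, and ranged from 7.52 to 11.01 CPM in intact females (median 8.72) and from 7.64 to 10.4 CPM in OVX females (median 8.37). Intact male 6 alone lay far from the other intact males, which had at most 8.75 CPM. Gal (ENSRNOG00000015156) encodes galanin, a peptide of sensory and autonomic neurons as well as of spinal interneurons. Gal had 5.57, 4.94, 15.0, 12.5 and 4.99 CPM in intact males 1, 2, 3, 5 and 6, and 8.58, 7.94, 6.76, 7.67 and 9.59 CPM in GDX males 1, 2, 4, 5 and 6. Intact males 3 and 5 lay above every GDX male and the other intact males below every GDX male. Gal ranged from 3.44 to 6.67 CPM in intact females (median 5.64) and from 5.23 to 7.24 CPM in OVX females (median 6.75). Nts (ENSRNOG00000004179), the neurotensin precursor, had 4 to 33 counts per library, with group means from 0.895 CPM in intact females to 1.40 CPM in OVX females. Grp (ENSRNOG00000016999), gastrin-releasing peptide, a transmitter of itch circuits in the dorsal horn, had at most 4 counts in any library.

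**Figure D1:**
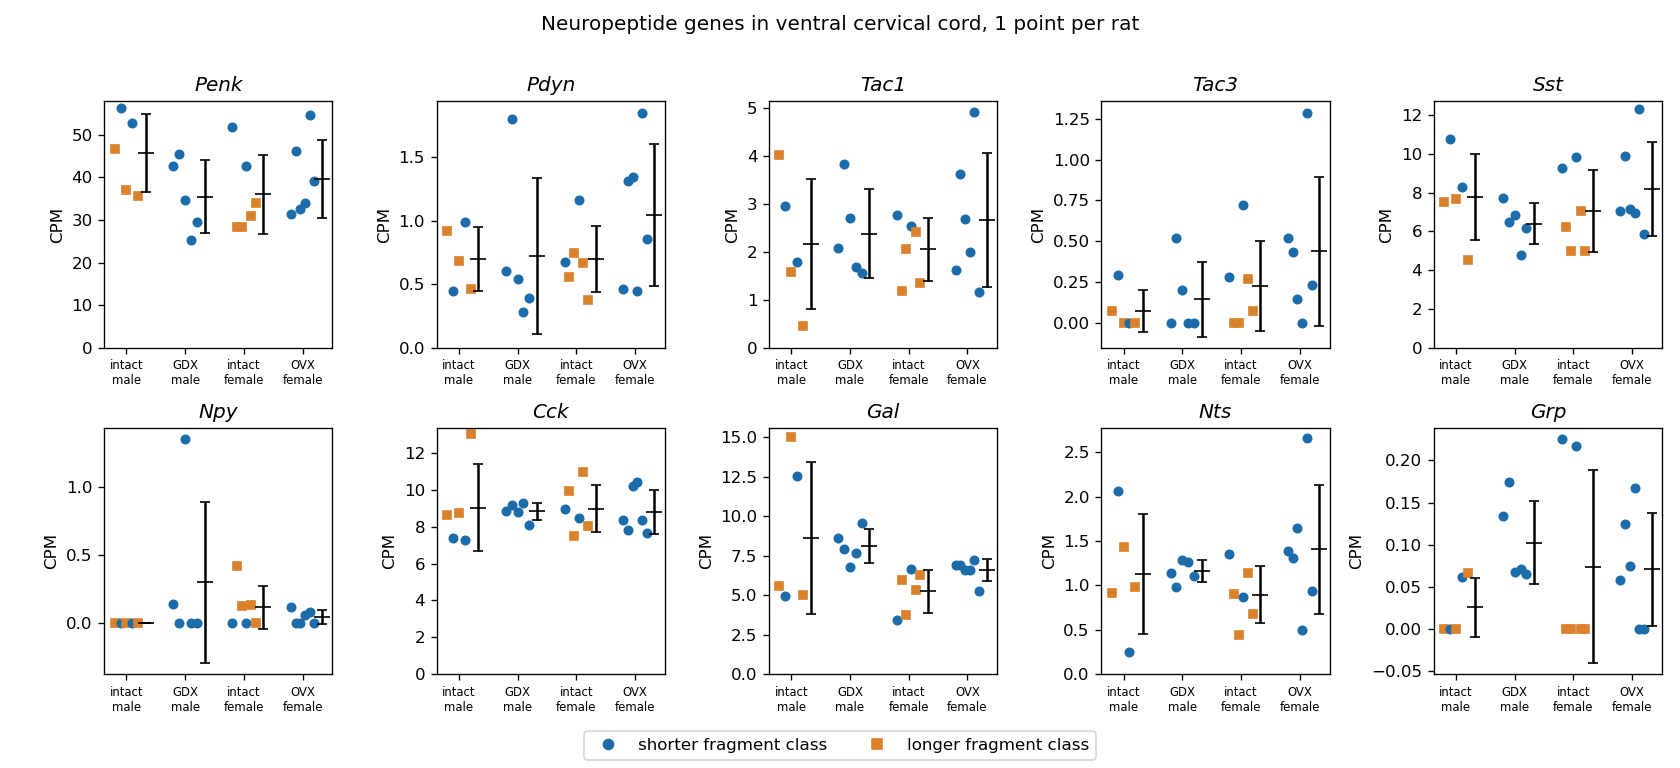
CPM of each of the 10 members by group, 1 point per rat, circles for the shorter and squares for the longer fragment class; black marks give the group mean and SD. Within each sex the intact and operated groups overlap in each of the 7 genes that passed the filter, and among intact rats the squares of Penk and Sst lie below the circles of the same sex.

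Removal of the testes was tested first. With edgeR's quasi-likelihood test and Benjamini-Hochberg adjustment over all 14931 genes tested, 0 of the 6 members tested were called at an adjusted p under 0.1, where 13.4% of all genes were called. At an unadjusted p under 0.05 the count was 1 (Penk), where 23.8% of all genes passed, and DESeq2 called 0. For Penk the log2 fold change was -0.37 in 5 GDX against 5 intact males (SE 0.154, adjusted p = 0.163). The call depended on the settings: with the fragment class as a term the log2 fold change was -0.62 (adjusted p = 0.0784), without GDX male 2 it was -0.47 (adjusted p = 0.0789), and over 18 alternatives the adjusted p ran from 0.0415 to 0.337, with 4 of them calling Penk lower in GDX males. Among libraries of the shorter class, where the 2 intact males had 56.3 and 52.8 CPM, all 5 GDX males lay below both (log2 fold change -0.62, adjusted p = 0.111). Sst had -0.28 (SE 0.188, adjusted p = 0.399), and the other members tested (Tac1, Cck, Gal and Nts) lay between -0.09 and 0.14. The median log2 fold change of the 6 members was -0.06, beside 0.00 over all genes tested. In a bulk sample, fewer cells that make a peptide and less RNA per cell cannot be told apart.

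Removal of the ovaries gave 0 calls among the 7 members tested by edgeR, where 0.0335% of 14910 genes were called. The count at an unadjusted p under 0.05 was 1 (Gal), where 10.2% of all genes passed, and DESeq2 called 0. Gal came to 0.34 on the log2 scale in 6 OVX against 6 intact females (SE 0.158, adjusted p = 0.477), Nts to 0.61 (SE 0.346, adjusted p = 0.586) and Pdyn to 0.54 (SE 0.362, adjusted p = 0.659). Penk had 0.13 (SE 0.156, adjusted p = 0.843), and with the fragment class as a term its sign turned, to -0.26 (adjusted p = 0.773, and 0.499 to 0.977 over 20 alternatives). Sst and Tac1 also turned with this term, to -0.22 and -0.0070, and Cck turned positive. The median of the 7 members, without the term, was 0.34, beside 0.00 over all genes. In the same comparison it was 0.31 over meninges and fibroblast genes (9 of 9 positive) and 0.12 over microglia genes (6 of 6 positive). It was 0.039 over dorsal horn genes (7 of 12 positive) and -0.32 over motor neuron genes (1 of 9 positive). The part of these lists in the values of the members was not tested.

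The difference between the GDX and OVX responses was tested as an interaction over 22 rats. No member of 7 was called by edgeR (0 also by DESeq2, and 0 at an unadjusted p under 0.05, where 11.6% of all genes passed), where 0.116% of 15562 genes were called. Penk had the smallest p among the members, with a difference of -0.49 on the log2 scale (SE 0.245, adjusted p = 0.440 with edgeR). All 7 members had negative differences, with a median of -0.47 beside 0.00 over all genes, and Cck was at -0.0044. The signs of Tac1 and Cck depended on the rats used. With each rat left out Tac1 ran from -0.48 to 0.14 and Cck from -0.075 to 0.17, and both were positive in the shorter class alone. Other lists had medians away from that of all genes in this difference. General neuron genes had -0.24 (1 of 10 positive), peptide receptors -0.35 (1 of 16 positive) and genes of peptide processing and dense-core vesicles -0.20 (1 of 13 positive). Dorsal horn genes went the other way from the members, at 0.18 (9 of 13 positive). So did motor neuron genes, at 0.16 (8 of 9 positive), and meninges and fibroblast genes, at 1.31 (9 of 9 positive). The part of these lists in the values of the members was not tested.

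Between the sexes, 0 of 6 members were called by edgeR in intact rats, where 4.01% of 14937 genes were called. At an unadjusted p under 0.05 the count was 2, where 15.5% of all genes passed, and DESeq2 called 0. Gal was 0.73 higher in intact males on the log2 scale (SE 0.294, adjusted p = 0.239), where intact males 3 and 5 lay above every female and the other 3 within their range. Penk was 0.34 higher in intact males (SE 0.157, adjusted p = 0.307); with the fragment class as a term it was called (0.32, adjusted p = 0.0495), as it was without intact female 1 (0.48, adjusted p = 0.0704), and over 17 alternatives the adjusted p ran from 0.0495 to 0.541. Between GDX males and OVX females, whose libraries are all of the shorter class, 0 of 7 members were called by edgeR and by DESeq2, where 0.232% of 15084 genes were called. The count at an unadjusted p under 0.05 was 1, where 9.37% of all genes passed: Gal, with 0.30 (SE 0.114, adjusted p = 0.405).

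**Figure D2:**
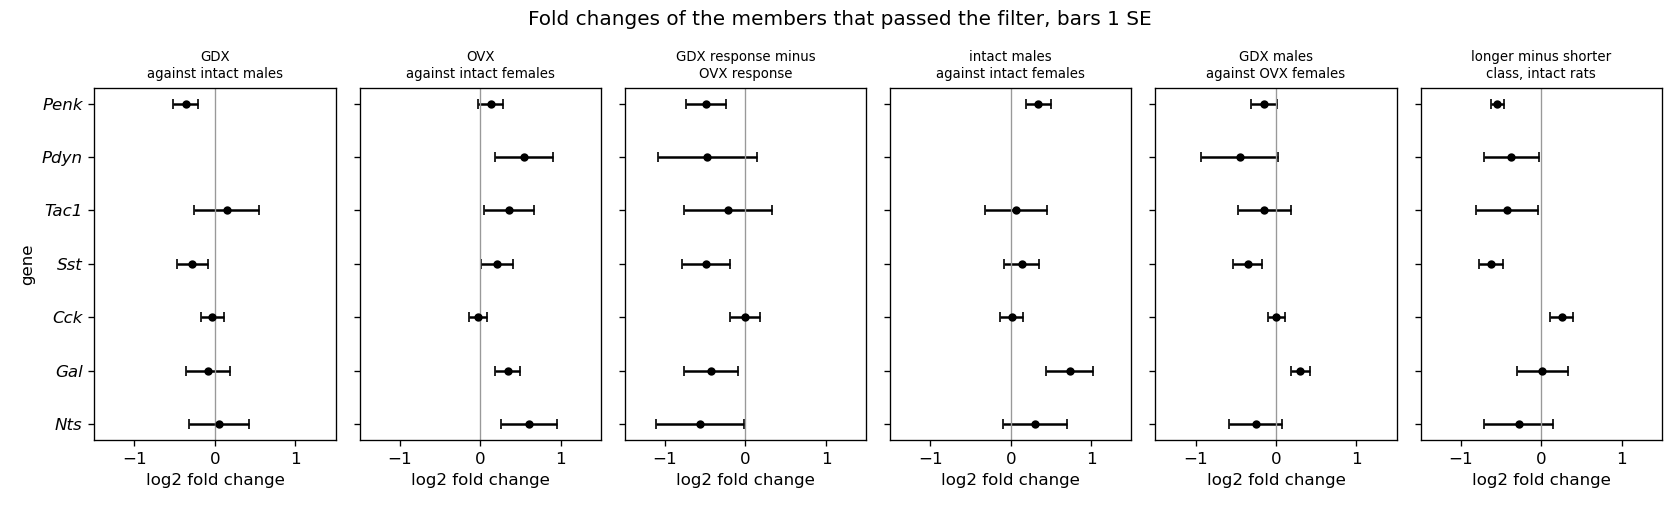
Log2 fold changes (horizontal axis) of the members that passed the filter in each of the 6 comparisons, with bars of 1 SE; the titles name the group in the numerator first. No member was called by edgeR at an adjusted p under 0.1, and Penk against fragment class, at -0.55, lies farthest from 0 in units of its SE.

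The fragment class itself was set against the members in the 11 intact rats, with sex as a term. Penk had 35.7 to 46.6 CPM in the 3 intact males of the longer class and 52.8 to 56.3 CPM in the 2 of the shorter class. In intact females the 4 longer-class libraries had 28.4 to 34.0 CPM and the 2 shorter-class libraries 42.6 to 51.8 CPM. The classes did not overlap within either sex. The log2 fold change of the longer against the shorter class was -0.55 for Penk (SE 0.0807, adjusted p = 0.102) and -0.63 for Sst (SE 0.150, adjusted p = 0.318) with edgeR, which called 0 of 7 members, as it called 0% of 15723 genes. At an unadjusted p under 0.05 the count of members was 2, Penk and Sst, where 7.75% of all genes passed. DESeq2 called both (adjusted p = 2.72e-06 and 0.0434) among 59 of 15723 genes. Over 14 alternatives the adjusted p ran from 4.86e-07 to 0.261 for Penk, which was also called without intact male 1 (-0.61, adjusted p = 0.00381), and from 0.00746 to 0.653 for Sst. The lists of cell type markers are given beside this, with no gene of them called: the median log2 fold change was 0.38 over 9 motor neuron genes (8 positive), -0.19 over 12 dorsal horn genes (4 positive) and -0.33 over 5 dorsal root ganglion genes (2 positive), beside 0.00 over all genes. Over general neuron genes it was -0.046 and over meninges and fibroblast genes 0.044, and the lists of central canal neurons and of glia lay between -0.084 (microglia) and 0.030 (astrocytes). Their part in the Penk and Sst values was not tested. Since every GDX and OVX library is of the shorter class, the class and removal of the gonads can be told apart only through the 4 intact rats of the shorter class.

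Penk also varied more between rats of a group than genes of its level usually did. Its biological coefficient of variation was 19.6%, where the trend of all genes at that level was 7.82%, and its ratio to the trend was at percentile 98.5 of 15562 genes. The ratios of the other members were also above those of most genes, from percentile 79.2 for Cck (13.3% against a trend of 13.4%) to 96.1 for Gal.

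The next question was whether the members moved together between rats, and with genes of the dorsal horn. Each log2 CPM value (prior count 2) was centred on its group mean, so that differences between the groups play no part. Of the 21 pairs among the 7 members that passed the filter, 6 had an adjusted p under 0.1 over the 21 pairs (100000 permutations within groups, two-sided), and these are the 6 pairs among Penk, Pdyn, Tac1 and Sst. Many other genes were as close to Penk: over 15561 genes the 99th percentile of r with Penk was 0.717, above its r with Pdyn (0.597) and Tac1 (0.641). The 100 genes most like each held 1 other member for Penk, 2 for Pdyn, 1 for Tac1 and 2 for Sst, and 1, 2, 0 and 1 dorsal horn genes in the same order. Penk and Sst had r = 0.780 (rho = 0.771, permutation p = 9e-05 and 0.00012, adjusted p = 0.00189), and 0.723 without the 2 rats farthest from the median of Sst. Tac1 and Sst had r = 0.752 (rho = 0.720, permutation p = 0.0004 and 0.00088, adjusted p = 0.0042), and 0.564 without the 2 farthest rats. Within the fragment classes, Penk and Sst had r = 0.746 in the 15 shorter and 0.320 in the 7 longer libraries, and Tac1 and Sst 0.805 and 0.723. Cck and Gal were in none of the 6 pairs. Penk and Cck had r = -0.388 (rho = -0.293, permutation p = 0.0837 and 0.207, adjusted p = 0.233), and Penk and Gal r = -0.0914 (rho = -0.0277, permutation p = 0.691 and 0.912, adjusted p = 0.806).

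**Figure D3:**
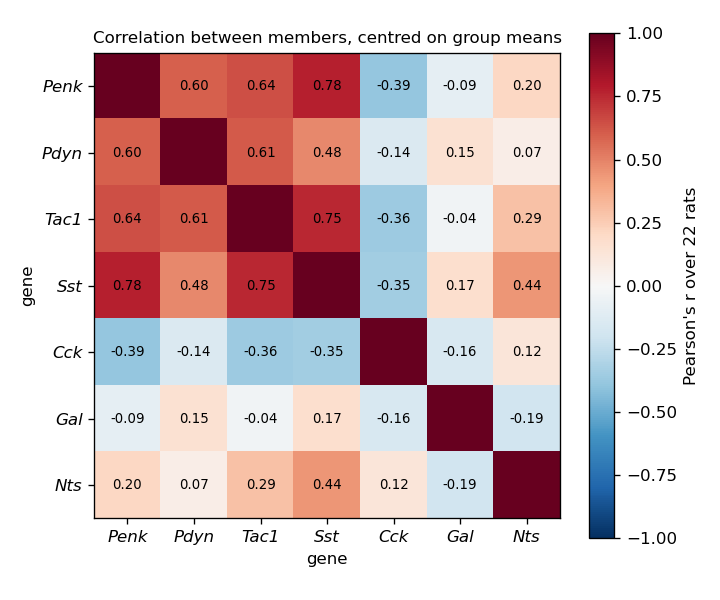
Pearson's r between each pair of the 7 members over 22 rats, from log2 CPM centred on group means, with color from -1 to 1. Penk, Pdyn, Tac1 and Sst form the block of high values, with r from 0.479 to 0.780.

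For 3 of the 4 genes of this block, Pdyn, Tac1 and Sst, the RefSeq promoter table (build GRCr8) holds a sequence, as it does for 7 of the 10 members. The last 120 bases before the annotated start are shown 5′ to 3′ because these genes moved together, at chr3:137366504-137366623 on the minus strand (Pdyn), chr4:36645463-36645582 on the plus strand (Tac1) and chr11:90461426-90461545 on the plus strand (Sst), with motif matches in capitals.
Pdyn: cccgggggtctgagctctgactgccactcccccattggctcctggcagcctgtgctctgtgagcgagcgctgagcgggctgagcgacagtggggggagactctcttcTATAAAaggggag
Tac1: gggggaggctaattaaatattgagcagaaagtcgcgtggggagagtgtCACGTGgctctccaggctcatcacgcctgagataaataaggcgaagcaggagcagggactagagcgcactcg
Sst: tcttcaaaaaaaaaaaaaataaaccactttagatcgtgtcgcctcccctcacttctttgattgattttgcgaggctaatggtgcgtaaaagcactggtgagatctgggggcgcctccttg
Searched on both strands of the 250 bases before the start, the cAMP response element, TGACGTCA, was in 1.59% of 33469 promoters. Its shorter form, TGACG, which the full element contains, was in 18.2% of them. The TATA box, TATAAA, was in 12.9%, the E-box, CACGTG, in 5.59%, and the AP-1 site, TGANTCA, in 6.34%. Pdyn held the letters of the TATA box at -13 to -8, counted from the annotated start. Tac1 held an E-box at -72 to -67 and, farther upstream, the shorter form of the cAMP response element at -206 to -202. Sst held none of these letters in the 250 bases before its annotated start. Bases after the annotated starts were not searched and the starts themselves were not checked, so a site beyond the window would be missed. A match of letters is no sign that a factor binds.

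The dorsal horn level was the mean log2 CPM of 13 dorsal horn genes that passed the filter, of 16 listed. Rorb gave the most reads of them, 16.9 CPM on average with no correction for transcript length. Of the genes that define superficial dorsal horn neurons, Lmx1b had 0.396 CPM on average with no count in 1 library, and Tlx3 0.103 CPM with no count in 11 of 22. Tac3 had r = 0.829 with this level (rho = 0.826, permutation p = 5e-05 and 7e-05, adjusted p = 0.001 over the 20 relations of 10 members with 2 levels), on 0 to 16 counts per library. Penk had r = 0.714 (rho = 0.692, permutation p = 0.001 and 0.00128, adjusted p = 0.01), and 0.734 without the 2 rats farthest from the median of the level. Sst had r = 0.587 (rho = 0.647, permutation p = 0.00722 and 0.00276, adjusted p = 0.0481), and 0.659 without them. Pdyn had r = 0.572 (adjusted p = 0.0501), Tac1 0.485 (0.0595) and Nts 0.449 (0.0938), so that 6 of 10 members were called over these 20 relations. The permutation test was not run over all genes, so no share of all genes called stands beside the 6. By rho, with permutation p adjusted in the same way, Pdyn (0.556, adjusted p = 0.0634) and Tac1 (0.583, adjusted p = 0.0299) were called. Nts was not (rho = 0.392, adjusted p = 0.258). Among 15549 genes outside the list, r with the level was at percentile 99.7 for Penk, 98.9 for Sst, 98.7 for Pdyn, 96.8 for Tac1 and 95.6 for Nts, and Tac3 did not pass the filter for this ranking. Cck had r = -0.192 (permutation p = 0.374) and Gal -0.0467 (permutation p = 0.816), and neither was called. For Npy and Grp the counts were too few to show a relation or its lack.

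The relation differed in size between the fragment classes, and the difference itself was not tested. In the 15 shorter libraries r was 0.748 for Penk, 0.749 for Pdyn, 0.779 for Tac1 and 0.663 for Sst (permutation p from 0.00504 to 0.0317). In the 7 longer libraries, 3 from males and 4 from females, r was 0.0807, -0.311, -0.0865 and -0.104 in the same order (permutation p from 0.549 to 0.959), while Tac3 had 0.567 (permutation p = 0.362) and Nts 0.253 (permutation p = 0.667). Centred on group and class together, Penk had r = 0.611 and Tac3 0.781, and only Tac3 was called. OVX female 5 was the highest of all rats in 5 members (Pdyn, Tac1, Tac3, Sst and Nts), and without it 2 members were called, Penk and Tac3. These 2 were called with each of the 22 rats left out in turn, Nts with 7 of them. With the median over the list in place of the mean, Tac3 had r = 0.465 (adjusted p = 0.229) and was not called, while Penk, Tac1 and Sst were. With values not centred on group means Penk had r = 0.270 (adjusted p = 0.457) and only Tac3 was called (r = 0.818).

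Fitted over all genes as a term beside the 4 group means (edgeR, adjusted over 15549 genes outside the list), the dorsal horn level called Penk alone of the 7 members, at 1.24 log2 units per log2 unit of the level (SE 0.251, adjusted p = 0.0322), where 0.270% of genes were called. In this fit Sst had an adjusted p of 0.248, Pdyn 0.323, Tac1 0.494 and Nts 0.566. Zic1, Zic2 and Zic5 of the list are also expressed by meninges. Without them Penk had 1.11 (SE 0.168, adjusted p = 0.00156) and Sst 1.07 (SE 0.260, adjusted p = 0.1003), where 0.392% of genes were called, and r with the level was 0.814 for Penk. By r, 4 members were then called (Penk, Pdyn, Tac3 and Sst), and Tac1 (r = 0.449, adjusted p = 0.117) and Nts (r = 0.422, adjusted p = 0.132) were not, while a narrower list of dorsal horn genes called 6.

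**Figure D4:**
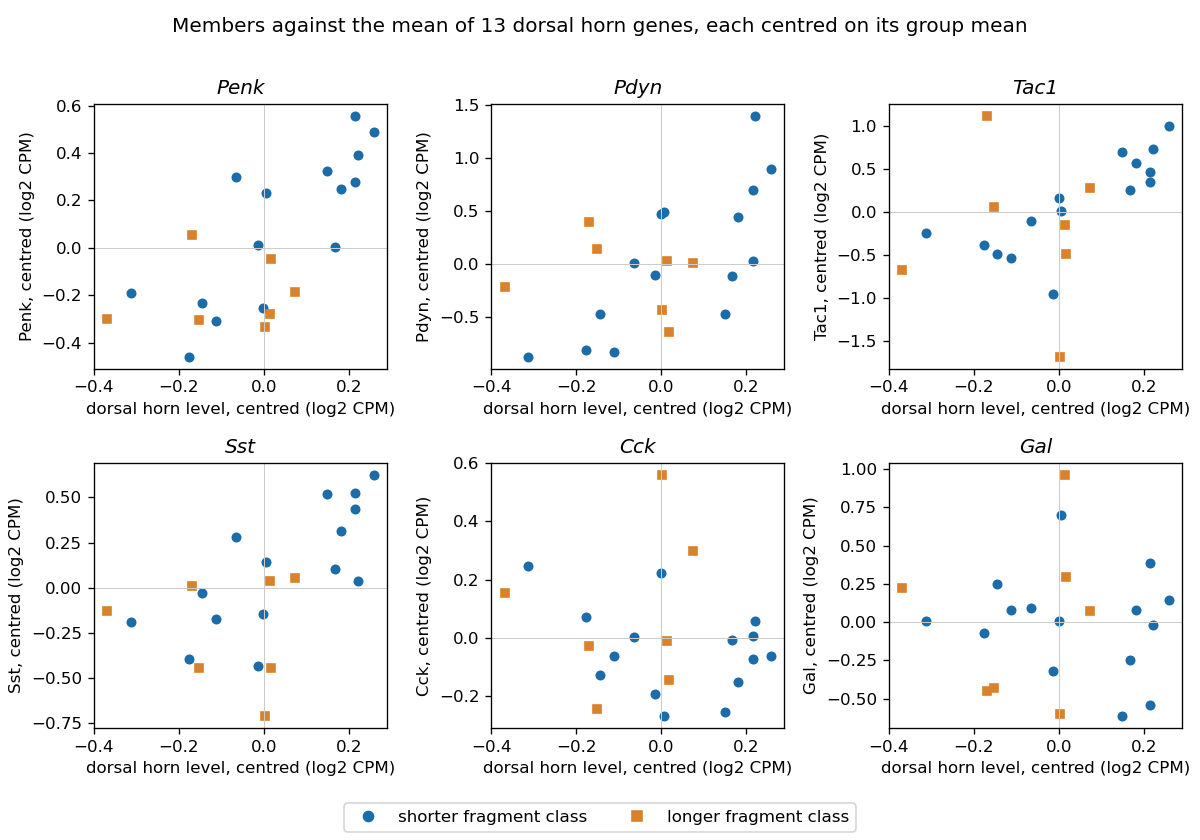
Log2 CPM of 6 members (vertical) against the mean log2 CPM of 13 dorsal horn genes (horizontal), both centred on group means, 1 point per rat, circles for the shorter and squares for the longer fragment class. Penk (r = 0.714) rises with the level among the circles and not among the squares, and Cck and Gal have r of -0.192 and -0.0467.

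A like relation held with neurons in general. The level of 10 general neuron genes had r = 0.864 with Penk (rho = 0.938, permutation p = 1e-05 for both, the smallest that 100000 permutations can give), 0.708 with Sst (rho = 0.669, permutation p = 0.00033 and 0.00106) and 0.688 with Tac1 (rho = 0.712, permutation p = 0.00046 and 0.00053), adjusted p = 0.0001, 0.00153 and 0.00153 over the 10 members. Tac3 was the other of the 4 members called (r = 0.482, rho = 0.480, permutation p = 0.0247 and 0.0289, adjusted p = 0.0618). Among all genes that passed the filter, r with this level was at percentile 99.96 for Penk, 99.04 for Sst and 98.8 for Tac1. For Penk r was 0.839 in the shorter and 0.955 in the longer libraries, and 0.899 without the 2 rats farthest from the median of the level. As a term over all genes the level called Penk (2.90, adjusted p = 0.000411), Tac1 (5.05, adjusted p = 0.0368) and Sst (2.83, adjusted p = 0.0200), where 2.13% of genes were called. The dorsal horn and general neuron levels were themselves related (r = 0.511, rho = 0.560, permutation p = 0.011 and 0.00934, adjusted p = 0.0276 over 5 pairs of levels; 0.579 without the 2 farthest rats). In the 7 longer libraries Penk had r = 0.955 with the general neuron level and 0.0807 with the dorsal horn level; the levels were not fitted together. With the meninges and fibroblast level no member was called over the 22 rats (r from -0.364 for Penk to 0.174 for Tac1; as a term in edgeR, 0 of 7 where 2.41% of genes were called). Within the classes Penk had r = -0.783 with this level in the shorter libraries (permutation p = 0.00176, adjusted p = 0.0176) and 0.703 in the longer ones (permutation p = 0.110).

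Between groups the dorsal horn level differed in males. Its mean was 1.83 in GDX and 1.55 in intact males (log2 CPM, exact permutation test, two-sided p = 0.0238), and it was lower in intact males than in intact females, at 1.88 (exact p = 0.0325). Without intact male 1 the GDX difference had an exact p of 0.0556, and the difference between the sexes had exact p up to 0.0635 without any 1 of 8 of the 11 rats. The exact tests of levels over all rats of a group took no account of the fragment class. In the shorter class alone, with 2 intact males, the GDX difference of the dorsal horn level was 0.20 (exact p = 0.190). Without the Zic genes GDX and intact males had 1.75 and 1.70 (exact p = 0.698), and intact males and females 1.70 and 1.88 (exact p = 0.126). OVX and intact females had 2.03 and 1.88 (exact p = 0.253), while the motor neuron level was lower in OVX females, at 4.97 against 5.30 (exact p = 0.0173; median log2 fold change -0.32, 1 of 9 genes positive). The motor neuron test, too, took no account of the fragment class. Intact females 1 and 4, of the shorter class, had 4.99 and 5.20, within the OVX range of 4.67 to 5.22. Intact females of the longer class had 5.33 to 5.47. The part of the motor neuron level in the values of the members in OVX females was not tested. Between intact males and females other lists differed too. Of 9 meninges and fibroblast genes tested, 7 were called lower in males, where 383 of all 14937 genes were, and all 9 had negative fold changes; their mean level was 3.00 against 4.27 (exact p = 0.00866). Of 10 general neuron genes 3 were called higher in males, where 216 of all genes were, and 9 had positive fold changes, with a mean level of 6.62 against 6.48 (exact p = 0.0498). Their part in the dorsal horn level and the Penk values of the intact sexes was not tested. In GDX males 9 of 9 meninges and fibroblast genes tested were called higher, where 1012 of all 14931 genes were, with a mean level of 4.55 against 3.00 (exact p = 0.00794). Of 10 general neuron genes all had negative fold changes and 5 were called lower, where 983 of all genes were, with a mean level of 6.38 against 6.62 (exact p = 0.0238). The summed level of the meninges and fibroblast genes was 124 ± 49.7 CPM (SD, n = 5) in intact and 389 ± 152 CPM (SD, n = 5) in GDX males. It was 184 and 294 CPM in GDX males 1 and 2. In GDX males 4, 5 and 6, whose Penk lay below that of all intact males, it was 430, 574 and 463 CPM. The part of the meninges, fibroblast and general neuron genes in the lower Penk values of GDX males was not tested.

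The machinery that makes and receives the peptides was followed by lists. In GDX males 6 of 13 processing and dense-core vesicle genes tested were called lower, where 983 of all 14931 genes were. Of the 13 genes, 1 had a positive log2 fold change, where 50.5% of all genes were positive. The median log2 fold change of the 13 was -0.26. It was -0.23 over the general neuron genes and 1.70 over the meninges and fibroblast genes in the same comparison. The part of these 2 lists in the values of the vesicle and receptor genes was not tested. Vgf, the source of secreted peptides of the vesicles, stood at -0.59 on the log2 scale (SE 0.119, adjusted p = 0.00984 with edgeR), the prohormone convertase Pcsk2 -0.27 (SE 0.0756, adjusted p = 0.0424) and Chga, chromogranin A, -0.33 (SE 0.0686, adjusted p = 0.0109). Of 15 receptors tested, 1 had a positive log2 fold change and the median was -0.28, where 50.5% of all genes were positive and their median was 0.00. Of the 15 receptors 1 was called lower, a share near that of all genes (983 of 14931). It was Oprl1, the nociceptin receptor, with 35.6 ± 1.18 CPM (SD, n = 5) in intact and 30.5 ± 2.71 CPM (SD, n = 5) in GDX males (log2 fold change -0.23, adjusted p = 0.0319). Its ligand gene Pnoc was the 1 of 8 other neuropeptide genes tested that was called, beside 13.4% of all genes, and it was higher in GDX males (0.65, SE 0.206, adjusted p = 0.0654). Of the receptors, Ntsr2, a neurotensin receptor, gave the most reads (50.8 CPM, with no correction for transcript length).

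The genes most like each member were taken by r of centred log2 CPM over 22 rats among 15561 others. For Penk these were Trank1 (0.923), Cadps2 (0.922) and Hoxb8 (0.917). Cadps2, a priming factor of dense-core vesicles, was also the closest to Sst (0.860), followed by Pnma3 (0.859) and Nsg2 (0.848), and Nsg2 was the closest to Tac1 (0.845), before Plcxd2 (0.828) and Cdh8 (0.822). Pdyn was closest to Pcdha4 (0.790), Camk2n2 (0.749) and Gria1 (0.748), Cck to Ttl (0.844), Smdt1 (0.776) and Plpp1 (0.760), Gal to Ppp1r1b (0.802), Izumo4 (0.780) and Gli3 (0.763), and Nts to C5ar2 (0.800), AABR07056953.1 (0.762) and Snapc3 (0.726).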

How the data were processed

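RNA of ventral cervical cord was sequenced with 1 library for each of 22 rats. The values are counts of reads per gene, deposited by the authors without normalization. The paper's methods name Trimmomatic, Hisat2 and featureCounts, while the submitters' processing notes name TopHat2 2.0.13, Subread and edgeR with build Rnor_6.0; strand and multi-mapping settings are not given in the sources used here. Genes kept by filterByExpr were tested with edgeR 4.0.16 in R 4.3.3 (TMM, glmQLFit, glmQLFTest), adjusted over all genes tested, and called at an adjusted p under 0.1; the pipeline was tested on simulated data. Members were related to the levels by 100000 permutations of rats within groups. This adjustment covers only the relations computed, and the fit over all genes stands beside it. Fits were repeated with DESeq2 1.42.0, without the filter, with RLE factors, with the fragment class or the rat number as a term, and with each rat left out. The genes named are the members, the 3 genes most like each member, and some of the most abundant and the called genes of the lists; Lmx1b and Tlx3 are named beside these, as markers of dorsal horn neurons, after their values were seen. Members and lists were chosen with earlier results of these data known.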

Additional observations from a re-analysis of the deposited data

Results flagged for a closer look

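Groups of rats were searched for a single value far from the rest, in the CPM of the 10 members and in the mean log2 CPM of 14 gene lists. Of 95 groups with any spread, 13 values stood apart by Dixon's test, where chance gives about 1 in 20 groups, and lists that share genes or rats are not independent. Among the members these were Pdyn in GDX male 2 (1.80 CPM, others 0.282 to 0.604), Tac3 in intact male 2 (0.295 CPM, others 0 to 0.0705), Npy in GDX male 4 (1.35 CPM, others 0 to 0.134), Npy in intact female 2 (0.415 CPM, others 0 to 0.133), Cck in intact male 6 (13.1 CPM, others 7.31 to 8.75) and Gal in OVX female 6 (5.23 CPM, others 6.57 to 7.24). Tac3 and Npy rest on few counts. Intact male 2 was high in the mean log2 CPM of dorsal root ganglion genes (1.52, others 0.884 to 1.01) and of peptide receptors (1.99, others 1.76 to 1.81). Intact female 1 was high in peptide receptors (1.86, others 1.58 to 1.67) and low in astrocyte genes (8.14, others 8.31 to 8.35). OVX female 3 was low in central canal neuron genes (0.943, others 1.28 to 1.40). OVX female 4 was low in microglia genes (3.90, others 4.20 to 4.27) and oligodendrocyte genes (10.6, others 10.7 to 10.8). The causes were not tested.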

How the results depend on the processing

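The count of members called was 0 in each comparison of groups. It was 1 in GDX against intact males, Penk each time, at an unadjusted p under 0.05, with the fragment class as a term and with the dorsal horn level without Zic genes as a term (an alternative chosen after seeing the data), and 0 to 1 with each rat left out. It was 1 at an unadjusted p under 0.05 in OVX against intact females and in GDX males against OVX females (0 with each rat left out in both, and in the difference of the responses). In intact males against intact females it was 2 at an unadjusted p under 0.05, 1 with the fragment class as a term and 0 to 1 with each rat left out. Between the fragment classes it was 2 at an unadjusted p under 0.05, by DESeq2 and with no filter, and 0 to 1 with each rat left out. As a replicate block, the rat number gave 1 member called in GDX against intact males (Penk, -0.44, adjusted p = 0.0923) and changed no other call of a member; it turned Gal in GDX against intact males to 0.35 and Cck in intact males against intact females to -0.025. Within each sex, intact and operated rats with the same number did not deviate together (correlations from -0.0771 to 0.0310), so there the numbers were taken as names only. Whether rats with the same number deviated together between the sexes was not tested. Over all genes the block called 1274 in place of 1995 in GDX against intact males, 255 in place of 599 between intact sexes and 0 in place of 5 in OVX against intact females.

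Of 785 fold changes of members under alternatives, 705 kept their direction and side of the threshold, 18 came to be called and 62 changed sign, none of them called. With the fragment class as a term and in the shorter class alone, Cck in GDX males came to 0.26 and 0.27, and in OVX females Penk to -0.26 and -0.26, Tac1 to -0.0070 and -0.0085, Sst to -0.22 and -0.23 and Cck to 0.014 and 0.011. In the shorter class alone the difference of the responses came to 0.021 for Tac1 and 0.25 for Cck, and intact males against intact females to -0.17 for Tac1, -0.0055 for Sst, -0.25 for Cck and -0.0017 for Nts. With each rat left out, signs also changed in GDX against intact males for Tac1 (-0.12 to 0.49), Cck (-0.11 to 0.14), Gal (-0.24 to 0.20) and Nts (-0.22 to 0.38); in OVX against intact females for Cck (-0.084 to 0.038); in the difference of the responses for Tac1 (-0.48 to 0.14) and Cck (-0.075 to 0.17); in intact males against intact females for Tac1 (-0.28 to 0.33), Sst (-0.0097 to 0.28), Cck (-0.16 to 0.081) and Nts (-0.029 to 0.58); in GDX males against OVX females for Tac1 (-0.39 to 0.10), Cck (-0.031 to 0.061) and Nts (-0.44 to 0.013); and between fragment classes for Gal (-0.29 to 0.33) and Nts (-0.66 to 0.17).

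The 6 members related to the dorsal horn level became 1 centred on group and class, 1 not centred (Tac3), 3 with the median over the list (Penk, Tac1 and Sst), 3 without the 2 farthest rats, 0 in the longer class, 1 without OVX females 2 and 5 (the longer class alone, the list without Zic genes and these 2 rats were chosen after seeing the data) and 2 to 6 with each rat left out. For the meninges and fibroblast level the count of 0 became 1 in the shorter class (Penk, r = -0.783) and stayed 0 with each rat left out. The dorsal horn level of GDX minus intact males, 0.28, was 0.051 with the median, 0.20 in the shorter class and 0.054 without Zic genes, with exact p over 0.05 in each, and 0.23 to 0.33 with each rat left out. OVX minus intact females, 0.15, was -0.22 with the median and -0.065 in the shorter class, and 0.076 to 0.21 with each rat left out. Intact males minus intact females, -0.32, was -0.29 with the median, -0.46 in the shorter class and -0.18 without Zic genes, and -0.40 to -0.28 with each rat left out; GDX males minus OVX females, -0.19, was -0.028 with the median, and -0.26 to -0.14 with each rat left out. Fewer rats enter the fits of the shorter and longer class; otherwise the cause was not tested. Depth limits Tac3, Npy and Grp, which were at or near 0 in most libraries.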
